A study of Mus musculus with 6 samples.

Results

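The glycolytic enzymes and the genes of the hypoxia response were followed in 4T1, a mouse mammary carcinoma cell line of BALB/c origin, with and without Mki67, the gene of the proliferation antigen Ki-67. The 41 genes were taken from a fixed list of symbols, matched to the Ensembl identifiers of the count tables through GENCODE M21 on GRCm38, out of 54146 identifiers in the tables. They comprise 18 core enzymes from hexokinase to lactate dehydrogenase, 4 transporters of glucose and lactate, 4 kinases that set the flux, 4 genes of oxygen sensing, and 11 other targets of the hypoxia-inducible factors (HIF). Total RNA was sequenced from wild-type cells (WT) and from 2 separate Mki67-/- clones, clone 1 and clone 2, with 2 libraries in each of the 3 groups. All groups were cultured alike in high-glucose medium, and the labels name no treatment, hypoxia included. Each knockout group is 1 clone, so the effect of the genotype cannot be told apart from what else distinguishes a clone from the WT cells. No label tells if paired libraries are separate cultures or repeat preparations of 1 culture, so a p-value here speaks only of library-to-library spread, possibly technical.

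Glycolysis splits glucose into pyruvate in the cytosol, and lactate dehydrogenase converts pyruvate into lactate, which leaves the cell through monocarboxylate transporters. Several steps are served by isozymes, encoded by separate genes that differ between tissues. In normal oxygen the prolyl hydroxylases Egln1 to Egln3 mark HIF alpha subunits for destruction; in hypoxia the subunits persist, pair with Arnt and raise the transcription of most glycolytic genes and of genes for blood vessel growth, pH control and collagen modification. Tumour cells often keep this programme active in the presence of oxygen. Much of its control acts on the HIF alpha protein, which RNA does not report.

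The libraries held between 10428970 and 22658499 reads assigned to genes, and a floor of 3 reads corresponded to 0.132 to 0.288 in units of counts-per-million (CPM). Mki67 itself, as a check of the labels, was lower by 2.88 on the log2 scale in clone 1 and by 3.90 in clone 2 (Mki67: adjusted p = 4.03e-10 and 2.77e-11). All 8 epithelial markers were detected, with summed levels of 3909 to 6148 CPM. The markers of leukocytes, fibroblasts and endothelium summed to at most 0.135, 0.295 and 0.360 CPM, and 3 of 6, 2 of 6 and 2 of 4 of them had no read in any library. Of the 41 genes, 38 had enough reads to be tested. The exceptions were Slc2a3, a high-affinity glucose transporter, with 0 to 2 reads per library, and Slc16a3, a lactate exporter, and Epas1, which encodes HIF-2 alpha, both with no read in any library. Beside the tests below stands a wide background: 56% of the 13755 tested genes were called between the mean of both clones and WT (26.6% higher, 29.4% lower), where called means an edgeR quasi-likelihood test with a Benjamini-Hochberg adjusted p under 0.05.

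Against that background, 9 of the 38 tested genes were higher and 13 lower in the mean of both clones. In clone 1, where 50.9% of all tested genes were called, 9 rose and 14 fell, when 24.7% of all tested genes rose and 26.2% fell. In clone 2, where 53.4% were called, 14 rose and 12 fell, when 25.3% of all tested genes rose and 28.2% fell. With the median of each chromosome removed, the split was 6 higher and 15 lower in clone 1 and 11 higher and 13 lower in clone 2, and over all tested genes 3155 higher and 3297 lower in clone 1 and 3402 higher and 3615 lower in clone 2. The clone comparisons share the WT libraries. A call in the same direction in both was made for 7 of the 38 genes upwards, beside 17.9% of all tested genes. Downwards it was made for 10 of the 38, beside 20% of all tested genes. The upward set was Slc2a1, Hk2, Gapdh, Eno1, Pdk3, Vegfa and Bhlhe40, and the downward set Pfkm, Aldoc, Eno2, Eno3, Ldhb, Hif1a, P4ha1, P4ha2, Adm and Stc2. The core enzymes had a median log2 change of -0.16 in clone 1 and 0.19 in clone 2, and the 11 other HIF targets one of 0.011 in clone 1 and -0.67 in clone 2, beside medians of -0.014 and -0.023 over all tested genes. Neither division moved as a block: 3 core enzymes rose and 6 fell in the mean of both clones, and 3 other HIF targets rose and 5 fell. The falls include 6 genes that passed the filter on low counts through the WT libraries alone: Aldoc, Eno2, Ldhb, P4ha2, Adm and Stc2. A difference was built into their being tested, and they count among the lower genes in every comparison above.

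**Figure D1:**
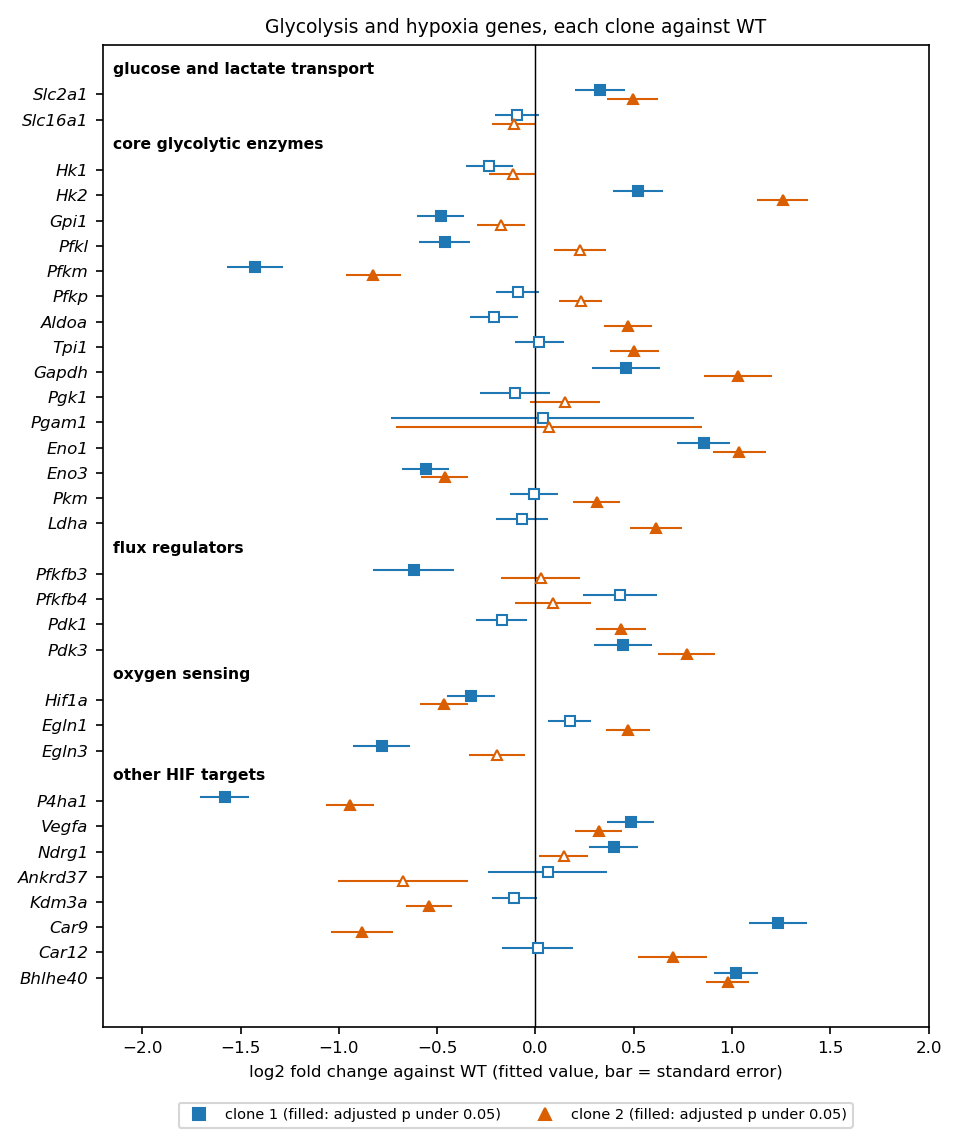
Log2 fold change of each clone against WT for the tested genes, by role, leaving out the 6 genes near silence in the clones; squares are clone 1, triangles clone 2, bars the standard error, and filled symbols an adjusted p under 0.05. Hk2, Eno1 and Bhlhe40 lie to the right in both clones, Pfkm, Eno3 and P4ha1 to the left in both, and Car9 lies on opposite sides.

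The largest differences were the near silence, in both clones, of 6 genes: 3 minor glycolytic isozymes (Aldoc, Eno2, Ldhb) and 3 HIF targets (P4ha2, Adm, Stc2). Each was under 0.7 CPM in all 4 clone libraries and passed the filter on low counts through the WT libraries alone, so a difference was built into their being tested. At least 8-fold lower and called in both clones were these 6 of 38 genes, beside 2.7% of all tested genes (372), and 0 of 38 were as much higher, beside 0.378%. The 8-fold limit was set after these values were seen. In bulk RNA, fewer cells that transcribe a gene and less RNA per cell cannot be told apart.

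Stc2 encodes stanniocalcin 2, a secreted glycoprotein, at chr11:31357307-31370074 on the minus strand. It stood at 13.0 and 10.9 CPM in WT, at 0 and 0.0450 CPM in clone 1 and at 0.0589 and 0 CPM in clone 2. The groups of both clones lay far below WT and overlapped with each other. The 317 WT reads faced 2 reads in the 4 clone libraries, a ratio of 498 (exact 95% interval 137 to 4131, counting error only). Ldhb encodes the H subunit of lactate dehydrogenase, at chr6:142490249-142507957, minus strand, and held 5.82 and 4.90 CPM in WT. Its clone libraries were at 0, 0, 0 and 0.0432 CPM. The only read of Ldhb outside WT came from clone 2 library 2. With no read in clone 1, it was there at least 78.5-fold lower than in WT, taking a floor of 3 reads over the group; in clone 2 the ratio was 211 (37.2 to 8375, from 1 read). Adm, the vasodilator peptide adrenomedullin (chr7:110627661-110629820, plus strand), was low already in WT, at 2.17 and 1.89 CPM, and had 1 read among the clone libraries. For Adm the bound in clone 2 was at least 26.7-fold lower and the ratio in clone 1 was 89.6 (15.4 to 3604). All 4 clone libraries lay below both WT libraries for each of these 3 genes.

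Aldoc, the brain-type aldolase (chr11:78322968-78327781, plus strand), gave 8.48 and 11.9 CPM in WT, 0.220 and 0.225 CPM in clone 1 and 0.353 and 0.173 CPM in clone 2. Eno2, the neuronal enolase (chr6:124760053-124769673, minus strand), gave 9.07 and 12.9 CPM in WT, 0.309 and 0.135 CPM in clone 1 and 0.294 and 0.302 CPM in clone 2. Every clone library lay far below WT in both genes. In the mean of both clones Aldoc fell by 5.41 (SE 0.27, adjusted p = 1.25e-10) and Eno2 fell by 5.39 (SE 0.27, adjusted p = 1.1e-10) on the log2 scale. Both, like P4ha2, passed the filter on low counts through WT alone, so a difference was built into their tests against WT. P4ha2, a catalytic subunit of the collagen prolyl hydroxylase (chr11:54100095-54131665, plus strand), gave 4.73 and 5.67 CPM in WT, 0.0881 and 0.0450 CPM in clone 1 and 0.530 and 0.345 CPM in clone 2. The 3 groups did not overlap, and clone 1 was the lowest. The clone 1 libraries held 3 reads of it, a ratio to WT of 79.7 (26.7 to 391), while in clone 2 P4ha2 fell by 3.61 (SE 0.33, adjusted p = 2.19e-07). P4ha2 was higher in clone 2 than in clone 1 by 2.56 (SE 0.69, adjusted p = 0.0153); without clone 1 library 2 this was 2.19 (adjusted p = 0.106) and without clone 2 library 1 it was 2.27 (adjusted p = 0.127).

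The letters upstream of the start of 5 genes are shown because they span the patterns seen: Ldha and Ldhb, the main and the near-silent lactate dehydrogenase subunit; Hk2, which rose in both clones; P4ha1, which fell in both; and Stc2, near silent in both. Each run holds the 250 bases before the RefSeq start on GRCm38.p6, 5' to 3' on the strand of the gene: chr7:46845554-46845803 plus for Ldha, chr6:142507958-142508207 minus for Ldhb, chr6:82774455-82774704 minus for Hk2, chr10:59323046-59323295 plus for P4ha1, and chr11:31370062-31370311 minus for Stc2. Capitals mark ACGTG and GCGTG on either strand, the core letters of the hypoxia response element that HIF binds.
Ldha: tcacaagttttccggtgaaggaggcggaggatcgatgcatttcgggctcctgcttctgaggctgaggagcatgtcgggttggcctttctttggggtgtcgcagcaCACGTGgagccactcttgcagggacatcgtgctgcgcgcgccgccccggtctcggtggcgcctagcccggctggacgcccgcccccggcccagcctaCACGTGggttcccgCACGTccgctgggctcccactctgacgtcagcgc
Ldhb: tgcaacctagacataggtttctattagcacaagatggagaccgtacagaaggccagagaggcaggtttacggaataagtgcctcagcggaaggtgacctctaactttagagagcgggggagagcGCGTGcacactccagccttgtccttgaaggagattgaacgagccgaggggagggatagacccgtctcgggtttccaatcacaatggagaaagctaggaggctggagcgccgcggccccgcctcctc
Hk2: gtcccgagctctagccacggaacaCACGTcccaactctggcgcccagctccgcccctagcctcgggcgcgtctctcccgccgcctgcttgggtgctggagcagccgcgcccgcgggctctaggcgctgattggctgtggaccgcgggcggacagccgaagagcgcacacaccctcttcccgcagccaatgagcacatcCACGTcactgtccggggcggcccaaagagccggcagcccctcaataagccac
P4ha1: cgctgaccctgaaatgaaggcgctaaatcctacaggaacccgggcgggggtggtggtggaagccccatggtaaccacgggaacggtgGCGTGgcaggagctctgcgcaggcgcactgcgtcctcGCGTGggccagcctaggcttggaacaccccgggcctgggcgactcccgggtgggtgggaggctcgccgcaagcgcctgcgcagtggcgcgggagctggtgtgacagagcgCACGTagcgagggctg
Stc2: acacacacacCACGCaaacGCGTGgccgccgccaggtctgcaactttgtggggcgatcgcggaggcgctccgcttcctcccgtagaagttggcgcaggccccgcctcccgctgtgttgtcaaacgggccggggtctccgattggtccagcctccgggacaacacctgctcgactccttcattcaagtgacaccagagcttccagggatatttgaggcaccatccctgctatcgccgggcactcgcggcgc
Ldha has 3 runs of capitals in this stretch, P4ha1 3, Hk2 2, Stc2 2 and Ldhb 1. Of the 41 genes, 37 matched an entry, with 53 promoter windows of 300 bases between them (250 before to 50 after the start). ACGTG or GCGTG, both strands read, was found in 41 of the 53 windows (77.4%), against 43.8% of all 32851 mouse windows of that length. Some windows of the same gene overlap and share matches, as for Aldoa and Eno1. By gene, 33 of 37 had a match in any window, against 12628 of all 27025 genes. ACGTG was in 49.1% against 19.6%, GCGTG in 56.6% against 32.4%, and the palindrome CACGTG, which contains ACGTG, in 9.43% against 7.15%. The windows of the listed genes also held a median of 20 CpG against 7, and 61.3% G and C against 52.7%; what part base composition has in the shares was not tested. Among the near-silent genes 6 of 7 windows held a match (85.7%), and among the other tested genes 34 of 45 (75.6%). None was found for Eno2 among the near-silent genes or for Gpi1, Tpi1 and Car12 among the rest. The letters describe these windows, not binding.

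Among the transporters, Slc2a1 (GLUT1, the main glucose transporter of proliferating cells) was at 65.1 and 74.2 CPM in WT, 87.3 and 87.7 CPM in clone 1 and 109 and 88.0 CPM in clone 2. Every clone library was above both WT libraries, and Slc2a1 rose by 0.41 (SE 0.11, adjusted p = 0.00567) on the log2 scale in the mean of both clones. Within clone 1 the adjusted p of 0.0435 became 0.143 without WT library 1, 0.150 without clone 1 library 1 and 0.149 without clone 1 library 2; within clone 2, 0.00402 became 0.0672 without clone 2 library 1. With chromosome medians removed, Slc2a1 in clone 1 was 0.18 (adjusted p = 0.252), and clone 2 exceeded clone 1 by 0.44 (adjusted p = 0.0221). Slc16a1 (MCT1, a lactate and pyruvate transporter) held 275.8 ± 6.29 CPM in WT, 258 ± 14.3 CPM in clone 1 and 256 ± 19.6 CPM in clone 2 (SD, n = 2), with no call in any comparison (mean of both clones -0.10, adjusted p = 0.394).

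At the first step of the pathway Hk2 rose, and Hk1 did not pass the test. Hk2, the inducible hexokinase bound to mitochondria, gave 49.5 and 55.6 CPM in WT, 75.2 and 76.0 CPM in clone 1, and 113 and 138 CPM in clone 2. The 3 groups did not overlap. Hk2 rose by 0.52 (SE 0.13, adjusted p = 0.0029) in clone 1 and by 1.26 (SE 0.13, adjusted p = 6.9e-07) in clone 2, and clone 2 exceeded clone 1 by 0.73 (SE 0.12, adjusted p = 0.000807). Hk1, the housekeeping hexokinase, was at 137 ± 20.04 CPM in WT, 116 ± 4.88 CPM in clone 1 and 126 ± 0.0986 CPM in clone 2, and was called in none of the comparisons. Without WT library 1, Hk1 was called lower in clone 1 (-0.37, adjusted p = 0.0125) and in the mean of both clones (-0.31, adjusted p = 0.0191). Per kilobase of annotated exon, Hk2 made up 35.5% of hexokinase reads in WT, 48.1% in clone 1 and 58.6% in clone 2. Per kilobase of the 50-base words of the main transcript that occur in no other transcript, a length chosen after seeing the data, the shares were 21.2%, 31.1% and 40.8%. Both lengths gave the higher Hk2 share in the clones, and which hexokinase is the larger in clone 2 depends on the length. Hk2 lies on chromosome 6, whose tested genes had a median change of 0.21 in clone 1. With each chromosome's median removed, the clone 1 value of Hk2 was 0.29 (adjusted p = 0.0657) and the clone 2 value stayed called. Hk1 lies on chromosome 10, whose medians were -0.41 in clone 1 and -0.36 in clone 2. With medians removed, Hk1 was 0.19 (adjusted p = 0.209) in clone 1 and 0.26 (adjusted p = 0.0838) in clone 2. What part these chromosome shifts have in the hexokinase shares was not tested.

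Gpi1, glucose phosphate isomerase, gave 276 and 296 CPM in WT, 204 and 205 CPM in clone 1 and 279 and 227 CPM in clone 2. The clone 1 libraries were below all others, and the fall of 0.48 (SE 0.12, adjusted p = 0.00347) was called there, while clone 2 differed from WT by -0.18 (adjusted p = 0.235) and from clone 1 by 0.31 (SE 0.12, adjusted p = 0.0758). The mean of both clones was -0.33 (adjusted p = 0.0129), and -0.28 (adjusted p = 0.0624) without WT library 2. Between the clones, Gpi1 was called without WT library 1 (0.31, adjusted p = 0.0330), WT library 2 (0.31, adjusted p = 0.0334) or clone 2 library 2 (0.44, adjusted p = 0.0416).

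The phosphofructokinases, which commit sugar to glycolysis, changed to different degrees. Pfkm, the muscle subunit, gave 30.8 and 36.1 CPM in WT, 13.0 and 12.0 CPM in clone 1 and 17.6 and 20.2 CPM in clone 2. All 4 clone libraries lay below WT and the clones did not overlap. Pfkm fell by 1.43 (SE 0.14, adjusted p = 6.02e-07) in clone 1 and by 0.83 (SE 0.14, adjusted p = 0.00012) in clone 2, a difference between clones of 0.60 (adjusted p = 0.00714) that lost its call without clone 1 library 2 (0.55, adjusted p = 0.0806) or clone 2 library 2 (0.49, adjusted p = 0.0883). Pfkl, the liver subunit and the most abundant of the 3 per kilobase, gave 198 and 258 CPM in WT, 161 and 169.8 CPM in clone 1 and 283 and 251 CPM in clone 2. Clone 1 lay below WT and clone 2 overlapped with it. The fall in clone 1 was 0.46 (SE 0.13, adjusted p = 0.00793), and its call was lost without WT library 2 (adjusted p = 0.0964) or clone 1 library 1 (adjusted p = 0.0581). Clone 2 exceeded clone 1 in Pfkl by 0.69 (SE 0.13, adjusted p = 0.00179; 0.61 and 0.0612 without clone 2 library 1), while against WT it was 0.23 (adjusted p = 0.156), or 0.44 (adjusted p = 0.00748) without WT library 2. The mean of both clones was called for Pfkl without WT library 1 (-0.28, adjusted p = 0.0360). Pfkl lies on chromosome 10, whose median was -0.41 in clone 1 and -0.36 in clone 2; with chromosome medians removed it was -0.039 (adjusted p = 0.830) in clone 1 and 0.60 (adjusted p = 0.00106) in clone 2.

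Pfkp, the platelet subunit, gave 106 and 106 CPM in WT, 101 and 98.0 CPM in clone 1 and 125 and 124 CPM in clone 2. Clone 2 stood above every other library. Against clone 1 the difference was 0.32 (SE 0.11, adjusted p = 0.0434), a call that needed all 4 clone libraries (adjusted p 0.243 and 0.329 without clone 1 library 1 and 2, 0.138 and 0.106 without clone 2 library 1 and 2). Neither clone was called against WT. The Pfkm share of phosphofructokinase reads per kilobase of exon was 19.3% in WT, 10.4% in clone 1 and 10.3% in clone 2. Words found in no other transcript, as the length, gave 11.3%, 5.60% and 5.79%.

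Aldoa, the main aldolase, gave 754 and 788 CPM in WT, 630.0 and 701 CPM in clone 1 and 1153 and 982 CPM in clone 2. Tpi1, triose phosphate isomerase, gave 356 and 363 CPM in WT, 347 and 382 CPM in clone 1 and 564 and 454 CPM in clone 2. In both genes clone 2 stood above all other libraries. Aldoa rose in clone 2 by 0.47 (SE 0.12, adjusted p = 0.00385) against WT and by 0.68 (SE 0.12, adjusted p = 0.00112) against clone 1. Tpi1 rose in clone 2 by 0.50 (SE 0.12, adjusted p = 0.00287) against WT, and by 0.48 (adjusted p = 0.0113) against clone 1, a call lost without clone 1 library 1 (0.41, adjusted p = 0.136) or clone 2 library 1 (0.33, adjusted p = 0.145). In clone 1 Aldoa differed from WT by -0.21 (adjusted p = 0.158) and Tpi1 by 0.019 (adjusted p = 0.913). The mean of both clones was 0.26 (adjusted p = 0.0519) for Tpi1, and 0.33 (adjusted p = 0.0173) without clone 2 library 2. Tpi1 lies on chromosome 6, and with chromosome medians removed its clone 2 value against WT was 0.31 (adjusted p = 0.0540). Aldoc supplied 1.16% of aldolase reads per kilobase of exon in WT, 0.0299% in clone 1 and 0.0215% in clone 2.

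Gapdh, glyceraldehyde phosphate dehydrogenase, was listed at 17.4 and 23.9 CPM in WT, 26.5 and 30.8 CPM in clone 1 and 48.9 and 36.5 CPM in clone 2. The 3 groups did not overlap, in rising order WT, clone 1, clone 2. Gapdh rose by 0.46 (SE 0.17, adjusted p = 0.0372) in clone 1 and by 1.03 (SE 0.17, adjusted p = 0.000134) in clone 2, with a difference between clones of 0.57 (SE 0.16, adjusted p = 0.021). The clone 1 call was lost without WT library 1 (0.27, adjusted p = 0.209) or clone 1 library 2 (0.36, adjusted p = 0.148), and that between clones without clone 1 library 1 (0.46, adjusted p = 0.111) or clone 2 library 1 (0.36, adjusted p = 0.298). With chromosome medians removed, Gapdh in clone 1 was 0.23 (adjusted p = 0.330). Its listed level is uncertain: 82.5% of the 50-base words of its main transcript also occur in transcripts of 222 other annotated genes, 213 of them pseudogenes, and reads that map to several places are tallied in the tables apart from genes. Annotated genes that share many of these words held 1119 and 2063 reads in WT, beside 176 and 404 on Gapdh. In clone 1 they held 3274 and 3244 beside 602 and 685, and in clone 2 4145 and 4315 beside 831 and 846. The changes above rest on the reads assigned to Gapdh alone.

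The same holds to a lesser degree for its neighbours in the pathway. Pgk1, phosphoglycerate kinase, shares 68.0% of its words and Pgam1, phosphoglycerate mutase, shares 41.5%. Pgk1 was at 18.3 ± 3.80 CPM in WT, 17.2 ± 4.18 CPM in clone 1 and 20.5 ± 1.27 CPM in clone 2, with no call. Pgam1 was at 9.40 ± 6.79 CPM in WT, 9.13 ± 1.39 CPM in clone 1 and 9.52 ± 5.28 CPM in clone 2, a spread within groups that leaves a standard error of 0.77 in clone 1 against WT. No difference in Pgam1 was detectable with that error. Eno1 shares 72.2% and Pkm 34.4%, Ldhb 27.0%, Gpi1 25.3%, Ldha and Pfkp 17.1% each, Aldoa 13.9% and Tpi1 7.51%. Words were matched on either strand. Those of Pfkp were shared with 1 gene, Pitrm1, which is no pseudogene, and whether they make reads map to several places was not tested. Annotated genes that share many words with Eno1 held 242 to 1732 reads per library, beside 791 to 3512 on Eno1. On the same strand, exons of Pkm (15.3% of bases), Pfkm (10.2%) and Hif1a (2.51%) overlap those of another annotated gene. The level of a gene with a high share, set against that of another gene, carries this uncertainty.

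**Figure D2:**
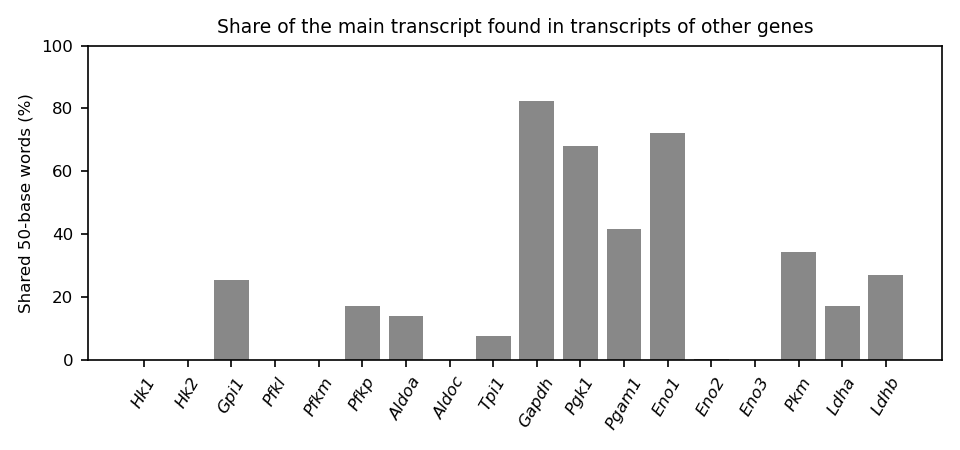
Bars give, for each of the 18 core enzymes, the percent of 50-base words of its main transcript that also occur in a transcript of another gene, on an axis from 0 to 100. Gapdh, Eno1 and Pgk1 are above 60, and Hk1, Hk2, Pfkl, Pfkm, Aldoc, Eno2 and Eno3 are near 0.

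The enolase isozymes moved in opposite directions. Eno1, the ubiquitous enolase, at chr4:150236721-150248879, gave 78.0 and 87.5 CPM in WT, 142 and 158 CPM in clone 1 and 191 and 149 CPM in clone 2. Eno3, the muscle enolase, gave 279.6 and 300.1 CPM in WT, 204 and 189.9 CPM in clone 1 and 228 and 193 CPM in clone 2. Every clone library was above WT for Eno1 and below WT for Eno3. Eno1 rose by 0.86 (SE 0.13, adjusted p = 6.56e-05) in clone 1 and by 1.04 (SE 0.13, adjusted p = 8.51e-06) in clone 2. Eno3 fell by 0.56 (SE 0.12, adjusted p = 0.000995) and by 0.46 (SE 0.12, adjusted p = 0.00375). Neither gene was called between the clones (adjusted p = 0.338 and 0.587). With chromosome medians removed, Eno1 was higher in clone 2 than in clone 1 by 0.46 (adjusted p = 0.0238), and the fall of Eno3 in clone 1 was -0.33 (adjusted p = 0.0244).

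The share of Eno1 in enolase reads per kilobase of exon was 8.33% ± 0.213 in WT, 19.8% ± 1.99 in clone 1 and 20.6% ± 0.973 in clone 2 (SD, n = 2). Counted per kilobase of words that occur in no other transcript, used since reads that map to several places are tallied apart from genes, its share was 43.5%, 67.7% and 68.9%. Which of Eno1 and Eno3 is the larger in the clones thus depends on the length used, and the higher Eno1 share in the clones does not. Eno2 supplied 1.26% of enolase reads per kilobase of exon in WT, 0.0331% in clone 1 and 0.0419% in clone 2.

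**Figure D3:**
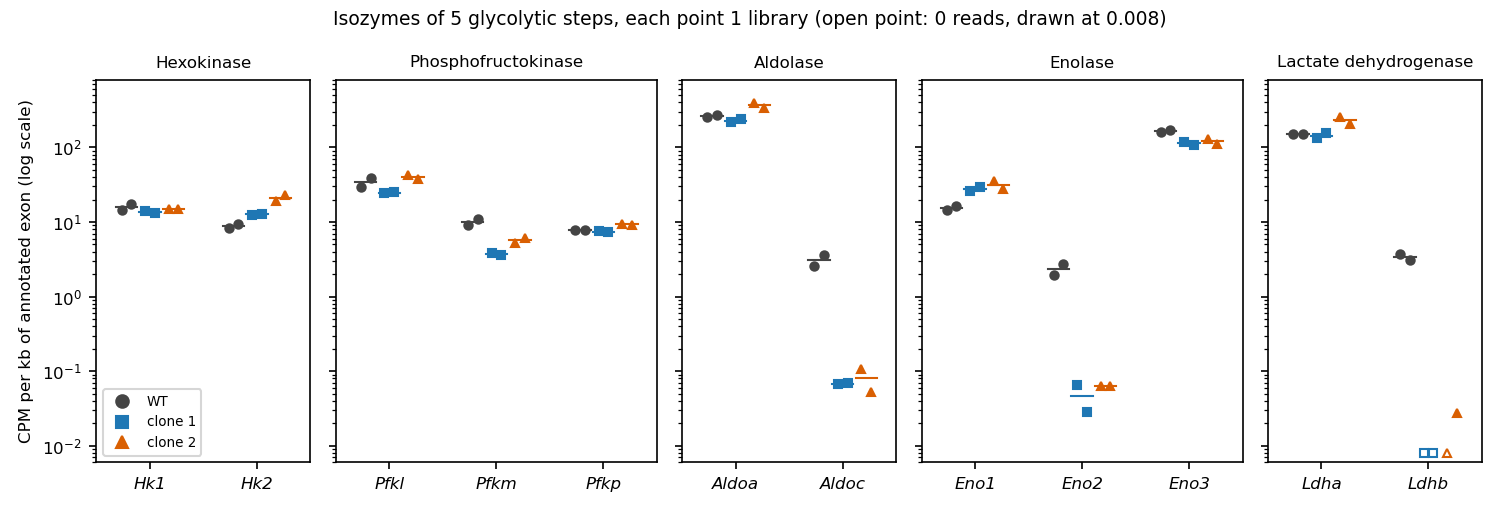
Level of each isozyme of 5 enzyme families in CPM per kilobase of annotated exon, on a log axis; each point is 1 library, short lines are the means of groups with no library at 0, and open points are libraries with 0 reads. On this scale Hk2 passes Hk1 in clone 2 alone, Eno1 lies higher and Eno3 lower in the clones than in WT, and Aldoc, Eno2 and Ldhb drop by more than a factor of 10.

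Pkm, pyruvate kinase of muscle type, was at 1632 ± 136 CPM in WT, 1623 ± 133 CPM in clone 1 and 2025 ± 119 CPM in clone 2. In clone 2 Pkm rose by 0.31 (SE 0.12, adjusted p = 0.0385), a call lost on leaving out any library but WT library 2 (adjusted p = 0.163 without WT library 1, 0.0838 and 0.0727 without clone 1 library 1 and 2, 0.167 and 0.0598 without clone 2 library 1 and 2). Against clone 1 the difference in Pkm was 0.32 (adjusted p = 0.065), called without WT library 1 (adjusted p = 0.0348) or WT library 2 (adjusted p = 0.0341). With chromosome medians removed, Pkm was called between the clones (0.36, adjusted p = 0.0487) and in the mean of both (0.27, adjusted p = 0.0396). Gene counts do not separate its M1 and M2 splice forms. Ldha, which encodes the M subunit of lactate dehydrogenase, gave 499 and 498 CPM in WT, 435 and 516 CPM in clone 1 and 849 and 676 CPM in clone 2. Clone 1 spanned the WT values and clone 2 lay above all of them. Ldha rose in clone 2 by 0.61 (SE 0.13, adjusted p = 0.000967) against WT and by 0.68 (SE 0.13, adjusted p = 0.00196) against clone 1, or by 0.51 (adjusted p = 0.0609) without clone 2 library 1. With both clones averaged, Ldha was at 0.27 (adjusted p = 0.0538), called without clone 1 library 1 (0.33, adjusted p = 0.0436) or clone 2 library 2 (0.34, adjusted p = 0.0233), and with chromosome medians removed (0.33, adjusted p = 0.0220). Ldhb made up 2.22% of lactate dehydrogenase reads per kilobase of exon in WT, 0% in clone 1 and 0.00673% in clone 2.

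Many core enzymes were higher in clone 2 than in clone 1. In clone 2 against clone 1, with 23.5% of all tested genes called, 14 of 38 listed genes were higher and 2 lower, when 12.1% of all tested genes were higher and 11.4% lower. Of the 18 core enzymes, 8 were higher (Hk2, Pfkl, Pfkm, Pfkp, Aldoa, Tpi1, Gapdh, Ldha) and 0 lower, with 10 not called; at an unadjusted p under 0.05 edgeR had 10 of the 18 higher and 0 lower. Aldoc, Eno2 and Ldhb, counted among the 10 not called, had at most 7 reads in any clone library. Without these 3 the median log2 difference of the core enzymes was 0.32, beside -0.0031 over all tested genes. DESeq2 and limma-voom each called 15 of the 38 genes higher and 2 lower. Over all tested genes DESeq2 called 1525 higher and 1096 lower, and limma-voom 1707 and 1600. The summed level of the core enzymes was 4355 and 4746 CPM in WT, 4011 and 4400 CPM in clone 1 and 6123 and 5345 CPM in clone 2. The sum was highest in both clone 2 libraries, and clone 1 overlapped with WT. The number of higher genes fell from 14 to 4 without clone 2 library 1, to 8 without clone 1 library 1 and to 9 without clone 1 library 2. Over all tested genes the higher calls fell from 1668 to 420, 772 and 690 in these fits. Hk2, Aldoa and P4ha1 kept the call whichever library was left out, and of the lower genes Car9 did.

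**Figure D4:**
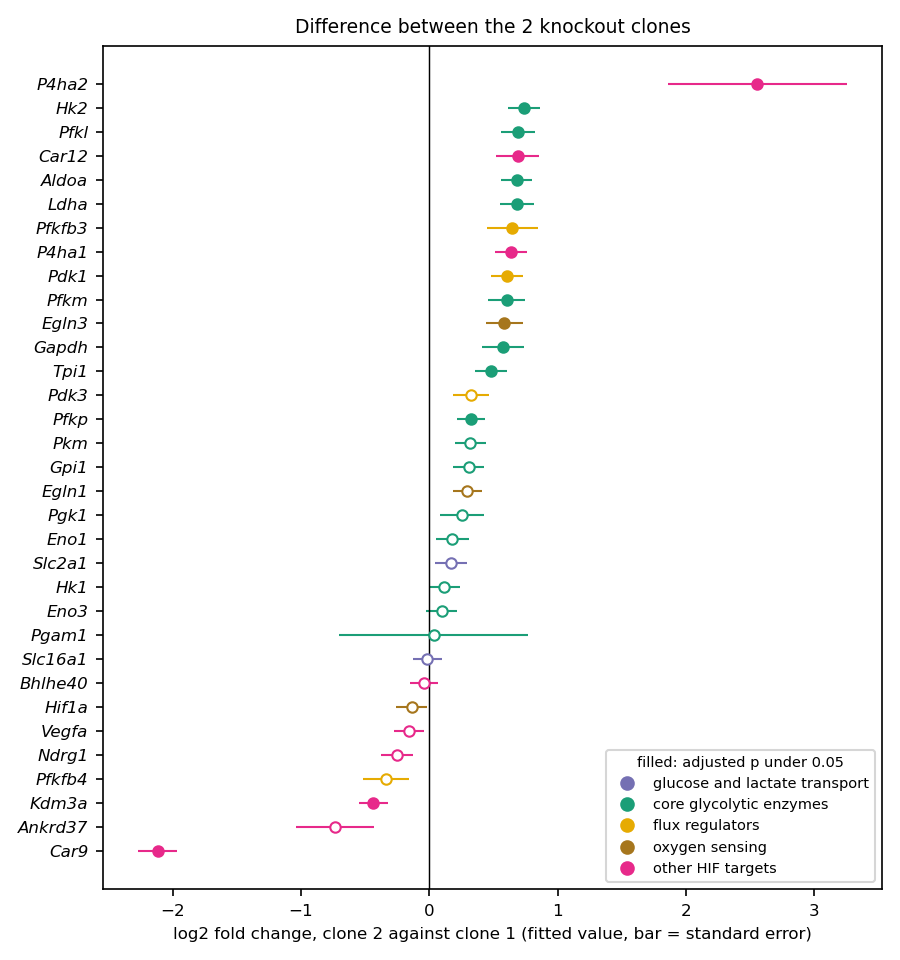
Log2 difference of clone 2 from clone 1, with its standard error, by gene, without the near-silent genes other than P4ha2; filled symbols have an adjusted p under 0.05. Of the filled symbols to the right 8 are core enzymes, P4ha2 is the farthest right at 2.56, and Car9 is the farthest left at -2.12.

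The kinases that set the flux differed by member. Pdk3, a pyruvate dehydrogenase kinase that holds pyruvate back from mitochondria, gave 35.8 and 32.0 CPM in WT, 45.8 and 46.4 CPM in clone 1 and 66.6 and 48.9 CPM in clone 2. All clone libraries were above WT. Pdk3 rose by 0.61 (SE 0.13, adjusted p = 0.00086) in the mean of both clones, and in clone 1 by 0.45 (adjusted p = 0.018), lost without WT library 2 (0.36, adjusted p = 0.0921) or clone 1 library 2 (0.44, adjusted p = 0.0534). Between the clones it differed by 0.32 (adjusted p = 0.107), or 0.52 (adjusted p = 0.0380) without clone 2 library 2.

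Pdk1, the family member under HIF control in many cells, gave 26.1 and 27.5 CPM in WT, 24.6 and 23.1 CPM in clone 1 and 38.8 and 34.0 CPM in clone 2. Clone 1 lay below WT and clone 2 above it. Pdk1 rose in clone 2 by 0.44 (SE 0.13, adjusted p = 0.00909), a value of 0.35 (adjusted p = 0.0855) without clone 2 library 1, and was higher than in clone 1 by 0.61 (adjusted p = 0.0031). That last call was lost without clone 1 library 2 (0.56, adjusted p = 0.05005) or clone 2 library 1 (0.52, adjusted p = 0.0686). The tested genes of chromosome 2, where Pdk1 lies, had a median of 0.29 in clone 2, and without chromosome medians Pdk1 stood at 0.15 (adjusted p = 0.327) there and at -0.42 (adjusted p = 0.0133) in clone 1.

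Pfkfb3 makes the fructose bisphosphate that activates phosphofructokinase. Its levels were 5.82 and 8.27 CPM in WT, 5.02 and 4.32 CPM in clone 1 and 7.77 and 6.91 CPM in clone 2. Clone 1 was the lowest group and clone 2 overlapped with WT. Pfkfb3 fell in clone 1 by 0.62 (SE 0.21, adjusted p = 0.0201), a call lost without WT library 2 (-0.32, adjusted p = 0.319) or clone 1 library 2 (-0.50, adjusted p = 0.144). The clones differed by 0.65 (SE 0.20, adjusted p = 0.0283), a call that needed all 4 clone libraries (adjusted p 0.0567 and 0.208 without clone 1 library 1 and 2, 0.204 and 0.0883 without clone 2 library 1 and 2). The mean of both clones was -0.30 (adjusted p = 0.168), or -0.49 (adjusted p = 0.0339) without WT library 1 and -0.56 (adjusted p = 0.0145) with chromosome medians removed. Pfkfb4, a related enzyme, was at 7.08 ± 1.51 CPM in WT, 9.69 ± 1.19 CPM in clone 1 and 7.67 ± 0.474 CPM in clone 2, with no call (clone 1 0.43, adjusted p = 0.0688); without WT library 2 it was called higher in clone 1 (0.69, adjusted p = 0.0206), as it was with chromosome medians removed (0.53, adjusted p = 0.0301).

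In oxygen sensing, Hif1a, the gene of HIF-1 alpha (chr12:73901375-73947530), gave 259 and 225 CPM in WT, 184 and 202 CPM in clone 1 and 163 and 188 CPM in clone 2. All clone libraries lay below both WT libraries. Hif1a fell by 0.40 (SE 0.10, adjusted p = 0.00408) in the mean of both clones, which kept its call whichever library was left out. Within clone 1 the adjusted p of 0.0334 became 0.156 without WT library 1, 0.268 without clone 1 library 1 and 0.0812 without clone 1 library 2, and within clone 2 that of 0.00434 became 0.0668 without clone 2 library 1.

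Egln1 encodes PHD2, the main oxygen sensor of the family. It gave 97.8 and 93.3 CPM in WT, 106 and 109.7 CPM in clone 1 and 131 and 134 CPM in clone 2. The 3 groups did not overlap. Egln1 rose in clone 2 by 0.47 (SE 0.11, adjusted p = 0.00199) and in the mean of both clones by 0.32 (adjusted p = 0.0101; 0.0528 without clone 1 library 2). It lies on chromosome 8, whose tested genes had a median of 0.33 in the mean of both clones, and with chromosome medians removed Egln1 was -0.027 (adjusted p = 0.833) in that mean and 0.069 (adjusted p = 0.633) in clone 2. Clone 2 exceeded clone 1 by 0.30 (adjusted p = 0.0601), called without WT library 1 or WT library 2 (adjusted p = 0.0211 in each).

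Egln3 encodes PHD3, itself a HIF target in many cells. It gave 28.6 and 32.2 CPM in WT, 17.2 and 18.3 CPM in clone 1 and 29.9 and 23.5 CPM in clone 2. Clone 1 lay well below all other libraries and clone 2 overlapped with WT. Egln3 fell by 0.78 (SE 0.14, adjusted p = 0.000308) in clone 1, and clone 2 exceeded clone 1 by 0.58 (SE 0.14, adjusted p = 0.00853). The difference between clones was 0.54 (adjusted p = 0.0682) without clone 1 library 1 and 0.41 (adjusted p = 0.150) without clone 2 library 1.

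Bhlhe40, a transcriptional repressor induced by hypoxia, rose in both clones. It gave 91.3 and 91.2 CPM in WT, 192 and 178 CPM in clone 1 and 182 and 177 CPM in clone 2. The clones overlapped with each other and stood far above WT. Bhlhe40 rose by 1.02 (SE 0.11, adjusted p = 1.63e-06) in clone 1 and by 0.98 (SE 0.11, adjusted p = 2.36e-06) in clone 2, with a difference between clones of -0.044 (adjusted p = 0.806).

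Vegfa, the vascular endothelial growth factor, gave 53.4 and 51.7 CPM in WT, 75.9 and 70.9 CPM in clone 1 and 61.9 and 69.2 CPM in clone 2. Every clone library was above WT. Vegfa rose by 0.40 (SE 0.10, adjusted p = 0.00383) in the mean of both clones, by 0.48 (adjusted p = 0.00293) in clone 1 and by 0.32 (adjusted p = 0.0313) in clone 2. It lies on chromosome 17, whose tested genes had a median of 0.55 in clone 1 and 0.17 in clone 2; with chromosome medians removed Vegfa was -0.055 (adjusted p = 0.730), 0.15 (adjusted p = 0.305) and, for the mean, 0.048 (adjusted p = 0.721). The clone 1 call was lost without clone 1 library 1 (adjusted p = 0.0521), and that in clone 2 without WT library 2 (0.0677), clone 1 library 1 (0.0788), clone 1 library 2 (0.0653) or clone 2 library 2 (0.184), as adjusted p.

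Ndrg1, a stress-induced protein, gave 269.5 and 238 CPM in WT, 344 and 324 CPM in clone 1 and 308 and 253 CPM in clone 2. Clone 1 lay above WT and clone 2 overlapped with it. Ndrg1 rose in clone 1 by 0.40 (SE 0.12, adjusted p = 0.0136), lost without WT library 2 (0.31, adjusted p = 0.0685) or clone 1 library 1 (0.35, adjusted p = 0.110). The mean of both clones was 0.27 (adjusted p = 0.0433), and was not called without WT library 2 (adjusted p = 0.223), clone 1 library 1 (0.136), clone 1 library 2 (0.0637) or clone 2 library 1 (0.121).

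P4ha1, the main catalytic subunit of the collagen prolyl hydroxylase, gave 64.3 and 67.3 CPM in WT, 21.8 and 22.3 CPM in clone 1 and 36.0 and 32.6 CPM in clone 2. The 3 groups lay far apart, with clone 1 the lowest. P4ha1 fell by 1.58 (SE 0.12, adjusted p = 3.87e-08) in clone 1 and by 0.94 (SE 0.12, adjusted p = 7.3e-06) in clone 2, and clone 2 exceeded clone 1 by 0.64 (SE 0.12, adjusted p = 0.00189). Its chromosome 10 had medians of -0.41 and -0.36, and with chromosome medians removed the mean of both clones was -0.86 (adjusted p = 2.35e-06) and clone 2 stood at -0.57 (adjusted p = 0.000747). P4ha2 had the same order of groups, WT above clone 2 above clone 1, but this adds little. That WT stood highest was built into its being tested, and its clones held few reads (2 and 1 in clone 1, 9 and 8 in clone 2). Its call between the clones was lost without clone 1 library 2 or clone 2 library 1.

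Kdm3a, a histone H3 lysine demethylase, gave 73.0 and 66.96 CPM in WT, 63.7 and 66.0 CPM in clone 1 and 47.8 and 48.1 CPM in clone 2. Clone 2 was the lowest group. Kdm3a fell in clone 2 by 0.54 (SE 0.12, adjusted p = 0.000951) and in the mean of both clones by 0.33 (adjusted p = 0.0108), the latter lost without WT library 1 (adjusted p = 0.0599) or clone 1 library 1 (adjusted p = 0.0567). Kdm3a was called lower in clone 1 also once chromosome medians were removed (-0.33, adjusted p = 0.0222). The difference between clones was -0.44 (adjusted p = 0.0132), a call that needed all 4 clone libraries (adjusted p 0.0802 and 0.151 without clone 1 library 1 and 2, 0.0985 and 0.0564 without clone 2 library 1 and 2).

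Car9 and Car12 encode carbonic anhydrases of the cell surface, which take part in acid export. Car9 (chr4:43506966-43513729) gave 15.8 and 21.6 CPM in WT, 45.8 and 43.0 CPM in clone 1 and 10.1 and 10.4 CPM in clone 2. Clone 1 lay above WT and clone 2 below it, with no overlap. Car9 rose in clone 1 by 1.23 (SE 0.15, adjusted p = 4.12e-06) and fell in clone 2 by 0.88 (SE 0.16, adjusted p = 0.000212). The difference of -2.12 (SE 0.15, adjusted p = 1.46e-07) between the clones kept its call whichever library was left out, and the mean of both clones, 0.18 (adjusted p = 0.278), describes neither of them; it was 0.44 (adjusted p = 0.0210) without WT library 2. Car9 was the 1 listed gene called in opposite directions in the clones.

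Car12 gave 8.58 and 7.03 CPM in WT, 7.05 and 8.50 CPM in clone 1 and 12.9 and 12.2 CPM in clone 2. Clone 2 lay above all other libraries, the opposite of its place for Car9. Car12 rose in clone 2 by 0.70 (SE 0.18, adjusted p = 0.00337) against WT and by 0.69 (SE 0.17, adjusted p = 0.0083) against clone 1, the latter lost without clone 1 library 1 (0.55, adjusted p = 0.123), clone 2 library 1 (0.66, adjusted p = 0.0977) or clone 2 library 2 (0.72, adjusted p = 0.0531). Averaged over both clones, Car12 was called without WT library 1 (0.50, adjusted p = 0.0306) and with chromosome medians removed (0.48, adjusted p = 0.0176). Ankrd37, a small ankyrin repeat gene with HIF control, was at 1.70 ± 0.179 CPM in WT, 1.80 ± 0.0568 CPM in clone 1 and 1.10 ± 0.275 CPM in clone 2, with no call (clone 2 -0.67, adjusted p = 0.0976). Ankrd37 was called lower in clone 2 with chromosome medians removed (-1.06, adjusted p = 0.0128).

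**Figure D5:**
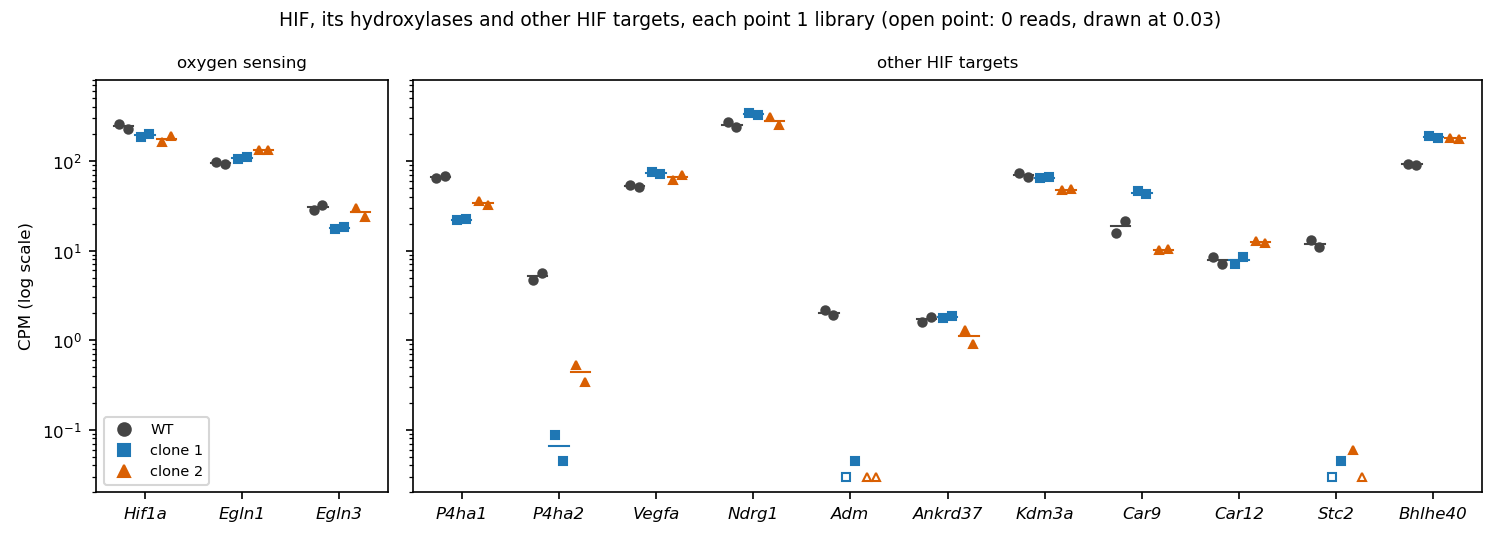
Levels in CPM of oxygen-sensing genes and other HIF targets in each library, on a log axis, by group. Bhlhe40 and Vegfa are higher in all 4 clone libraries, P4ha1 and Hif1a lower in all 4, and Car9 is at 45.8 and 43.0 CPM in clone 1 but at 10.1 and 10.4 CPM in clone 2.

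The genes next to these in the same pathways also went both ways. Of 22 tested genes among 35 others of glycolysis and pyruvate entry, 5 rose and 10 fell in the mean of both clones. Beside these counts, 26.6% of all tested genes rose and 29.4% fell. Pfkfb2 fell by 1.54 (adjusted p = 9.14e-08) and Pdk2, another pyruvate dehydrogenase kinase, by 2.54 (adjusted p = 1.72e-06), so that Pdk2 fell where Pdk3 rose. Slc2a8, a glucose transporter of internal membranes, fell by 1.32 (adjusted p = 6.65e-06), Mpc2, a subunit of the mitochondrial pyruvate carrier, by 0.62 (adjusted p = 0.000309), and Pgm1 by 0.54 (adjusted p = 0.000389). Pdp2, a pyruvate dehydrogenase phosphatase, rose by 0.59 (adjusted p = 0.000238).

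Among the 7 pentose phosphate genes, 3 fell and 4 were not called in the mean of both clones: Pgd by 0.68 (adjusted p = 3.42e-05), G6pdx by 0.67 (adjusted p = 3.94e-05) and Rpe by 0.52 (adjusted p = 0.00113). G6pdx and Pgd are the enzymes of the oxidative branch that yield NADPH. Tkt, a transketolase of the other branch, was not called in the mean of both clones (0.14, adjusted p = 0.273) or in clone 1. In clone 2 Tkt was called higher, both against WT and against clone 1. Of 16 genes of the citric acid cycle, 5 rose and 5 fell, among them Ogdh (fell by 0.98, adjusted p = 3.66e-07), Sdhd (fell by 0.74, adjusted p = 5.94e-06) and Idh3b (0.60, adjusted p = 0.000128). Beside the counts of both pathways, 26.6% of all tested genes rose and 29.4% fell in the mean of both clones. In clone 2 against clone 1, 3 of the 7 pentose phosphate genes were higher and 0 lower, with a median log2 difference of 0.28. Of the 16 citric acid cycle genes 4 were higher and 0 lower, with a median of 0.21. Over all tested genes 12.1% were higher and 11.4% lower. Higher levels in clone 2 than in clone 1 were thus not confined to the core enzymes.

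Of 11 tested genes among 13 others of the HIF pathway, 3 rose and 3 fell in the mean of both clones, when 26.6% of all tested genes rose and 29.4% fell. Elob, a subunit of the ligase that marks HIF alpha for destruction, rose by 0.65 (adjusted p = 0.000891), Crebbp, a coactivator, by 0.50 (adjusted p = 0.000999) and Vhl, the HIF-binding subunit of that ligase, by 0.32 (adjusted p = 0.0243). Egln2 fell by 0.43 (adjusted p = 0.00386), Cited2, which competes with HIF for coactivators, by 0.36 (adjusted p = 0.0101) and Arnt, the partner of HIF alpha, by 0.28 (adjusted p = 0.0276). Between the clones edgeR called 0 of these 11, with 1 higher and 2 lower at an unadjusted p under 0.05, beside the 23.5% of all tested genes that were called.

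A second set of 25 HIF targets outside the 41 genes had 21 tested, of which 2 rose and 8 fell in the mean of both clones. The shares over all tested genes were 26.6% and 29.4%. Bnip3, which promotes the removal of mitochondria, fell by 2.00 (adjusted p = 7.7e-09); its levels were 16.9 ± 1.20 CPM in WT, 4.34 ± 0.0923 CPM in clone 1 and 4.09 ± 0.201 CPM in clone 2. Stc1, the paralogue of Stc2, fell by 4.63 (adjusted p = 4.44e-08), with 3.15 ± 0.701, 0.111 ± 0.0299 and 0.132 ± 0.0639 CPM in these groups. Like Stc2, Stc1 passed the filter on low counts through the WT libraries alone, so a difference was built into its being tested. Insig2 fell by 1.12 (adjusted p = 7.01e-07) and Ero1l, an oxidase of protein folding, by 0.77 (adjusted p = 1.26e-05). Ddit4, an inhibitor of mTORC1, rose by 0.72 (adjusted p = 3.66e-05).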

How the data were processed

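Stranded total RNA libraries of rRNA-depleted RNA were made per the labels' protocols. The submitters' processing notes name FastQC, STAR 2.6.0c and the build GRCm38; the annotation and its release are not given in the sources used here. The authors deposited unnormalized counts of reads per gene, and column 4 (reverse strand, 92.3% to 95.7% of stranded gene reads) was used. Rows naming no gene were left out: 8.49% to 14.0% of reads were unmapped, 24.7% to 29.3% mapped to several places, and 1.90% to 2.74% were ambiguous. Depth was 10428970 to 22658499 gene reads.

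GENCODE M21 matched 54079 of 54146 identifiers. Aldoa has 2 identifiers, of which ENSMUSG00000030695 was used. In R 4.3.3, edgeR 4.0.16 kept 13755 genes (filterByExpr), scaled by TMM and fitted 1 quasi-likelihood model to all 6 libraries with robust dispersion (coefficient of variation 10.3%, 3 residual degrees of freedom). CPM use the scaled sizes; errors after ± are SD. Benjamini-Hochberg adjustment ran over all tested genes; fits were tested on simulated data. Alternatives used DESeq2 1.42.0, limma 3.58.1, other scalings, filters and strand settings, a replicate block, and the omission of 1 library at a time. Replicates differed by more than read sampling gives (chi-square over its degrees of freedom 78.8 in WT, 17.7 in clone 1, 25.0 in clone 2), and each library counted as 1. The WT pair thus differed most, and the model shares 1 estimate of spread among the groups. Fits on only the groups compared called 4524 genes between clones (3232 in the main fit), 6750 in clone 1 (6998) and 6842 in clone 2 (7349). What part the WT spread has in single calls was not tested. Bounds take a floor of 3 reads over the group.

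The genes and lists were chosen with earlier results of these data known. Every listed gene could be named; per-library values are given for those called in the mean contrast or between clones, and of each further list at most 6 genes with the smallest adjusted p; 1 gene so chosen is not reported here. Promoter sequences are RefSeq's on GRCm38.p6.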

Additional observations from a re-analysis of the deposited data

Results flagged for a closer look

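For 16 genes the change against WT differed between the clones, by the test of clone 2 against clone 1 itself (edgeR, adjusted p under 0.05). Among core enzymes the log2 difference was 0.73 for Hk2, 0.69 for Pfkl, 0.60 for Pfkm, 0.32 for Pfkp, 0.68 for Aldoa, 0.48 for Tpi1, 0.57 for Gapdh and 0.68 for Ldha. Of the flux-setting kinases Pfkfb3 differed by 0.65 and Pdk1 by 0.61. Of the oxygen-sensing genes and HIF targets, Egln3 differed by 0.58, P4ha1 by 0.64, P4ha2 by 2.56, Car12 by 0.69, Kdm3a by -0.44 and Car9 by -2.12. Hk2, Aldoa, P4ha1 and Car9 kept the call whichever library was left out.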

How the results depend on the processing

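With 2 libraries a group, many calls rest on small changes. With a minimum change of 1.5-fold, the calls became 3 higher and 8 lower in clone 1, 4 higher and 8 lower in clone 2, 3 higher and 8 lower in the mean of both clones, and 0 higher (2 at an unadjusted p under 0.05 in edgeR) and 1 lower in clone 2 against clone 1. Over all tested genes that test called 1116 higher and 1570 lower in clone 1, 1247 and 1788 in clone 2, 1176 and 1703 in the mean, and 184 and 159 between clones. Leaving out each library in turn gave 4 to 17 higher and 1 to 2 lower genes in clone 2 against clone 1. With chromosome medians removed, Vegfa in clone 1 turned to -0.055 (adjusted p = 0.730), Egln1 in the mean of both clones to -0.027 (adjusted p = 0.833), and Pfkl in that mean to 0.28 (adjusted p = 0.0458). Other scalings moved the median over all genes by under 0.1. Upper-quartile scaling still lost 6 of 87 calls: Slc2a1 and Gapdh in clone 1, Pkm and Vegfa in clone 2, Ndrg1 in the mean, Pfkp between clones. Over all tested genes it moved the clone 2 calls from 3474 higher and 3875 lower to 2984 and 4436.

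Per kilobase of words found in no other transcript, the Hk2 share was 21.2% in WT, 31.1% in clone 1 and 40.8% in clone 2; Pfkm 11.3%, 5.60% and 5.79%; Aldoc 0.602%, 0.0154% and 0.0111%; Eno1 43.5%, 67.7% and 68.9%; and Ldhb 1.64% in WT. The order of the groups was the same as per kilobase of exon for Hk2, Aldoc and Eno1.

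Replicate numbers were not taken as pairing: deviations of same-numbered libraries correlated at -0.16, 0.082 and 0.0047. With the replicate block, 8 genes were higher and 14 lower in clone 1, 12 and 12 in clone 2, 9 and 13 in the mean, and 13 and 2 between clones, and 4 of 87 calls were lost (Slc2a1 in clone 1, Pkm and Vegfa in clone 2, Pfkp between clones). Over all tested genes the block gave 3256 higher and 3448 lower in clone 1, and 3365 and 3765 in clone 2. It gave 3552 and 3924 in the mean, and 1488 and 1454 between clones. Genes under 3 reads a library cannot be told from silence.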
